A study of Mus musculus with 6 samples.

Results

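Pericentral hepatocyte and Wnt target genes, 10 of the 35540 genes in the expression table, were described across 6 mouse livers. Pericentral hepatocytes surround the central vein of the liver lobule, and Wnt target genes are those that Wnt signaling switches on. The set was named by gene symbol and not by a rule on measured values, but was chosen with earlier results of these data known. It holds 4 enzymes (Glul, Oat, Cyp2e1 and Cyp1a2), 2 transporters (Slc1a2 and Rhbg), 3 feedback and receptor genes of the Wnt pathway (Axin2, Lgr5 and Rnf43) and 1 transcription factor (Tbx3). All 10 were found in the table and all 10 passed the filter on low values.

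RNA was sequenced from the livers of 6 Surf4 fl/fl mice, 3 of them Alb-Cre+ and the other 3 Alb-Cre- littermates that served as controls, each genotype with 2 males (replicates 1 and 3) and 1 female (replicate 2). All 6 mice carried both copies of the Surf4 allele with exon 2 between loxP sites, on the C57BL/6J background, and the groups differed by the Alb-Cre transgene, which makes Cre recombinase under the albumin promoter and so acts in hepatocytes. Surf4 encodes a receptor for proteins leaving the endoplasmic reticulum. The RNA came from whole liver, in which endothelial, Kupffer and other cells keep an intact gene, and a shift in the number of cells of a type cannot be told apart from a shift in their RNA per cell. The mice ate standard chow, and the general collection methods of the study describe an overnight fast. The age of the sequenced mice is not given in the sources used here. Values are TPM, the abundance of a transcript per length relative to all transcripts of the liver, and read depth is unknown because TPM does not keep it.

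Hepatocytes differ along the path of the blood from the portal vein to the central vein, a pattern called zonation. Endothelial cells of the central vein release Wnt2, Wnt9b and the amplifier Rspo3. In the neighboring hepatocytes these stabilize beta-catenin, which acts with TCF factors to switch on the pericentral genes, while periportal hepatocytes carry urea synthesis and gluconeogenesis.

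The promoter windows below are shown because TCF factors bind a short motif. Windows from 250 bases before to 50 after the RefSeq start (GRCm38.p6) were searched on both strands for CTTTG with A or T at each of the next 2 positions. Of 32851 promoter windows of the same length in the mouse table, 16.9% held a match. An entry was found for 7 of the 10 members (8 windows), and 3 held a match. Lgr5, Rhbg and Tbx3 had no entry. The matches are given 5′ to 3′ on the strand of the gene, with the motif or its reverse complement in capitals.
Cyp2e1, chr7:140763659-140763715, plus strand, motif 135 bases before the start: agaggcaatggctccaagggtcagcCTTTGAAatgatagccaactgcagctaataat
Cyp1a2, chr9:57683868-57683905, minus strand, motif on the opposite strand 244 bases before the start: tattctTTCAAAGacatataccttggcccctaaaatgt
Slc1a2, chr2:102706206-102706262, plus strand, motif on the opposite strand 207 bases before the start: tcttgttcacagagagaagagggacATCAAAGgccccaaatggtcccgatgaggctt
Axin2, chr11:108920249-108920348, plus strand, shown as a standard Wnt target without these letters in the window: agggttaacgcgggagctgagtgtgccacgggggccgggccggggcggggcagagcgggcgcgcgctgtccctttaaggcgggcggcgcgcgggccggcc
The RefSeq starts of Cyp2e1, Cyp1a2 and Slc1a2 lay inside the genes as annotated by GENCODE, furthest for Slc1a2. Distances of these motifs from the GENCODE starts would thus differ. A match describes the letters and not a bound site, and the absence of one says only that these letters are not in this window.

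Surf4, the targeted gene, was measured at 59.0, 71.8 and 54.3 TPM in Alb-Cre+ replicates 1, 2 and 3 and at 92.5, 94.5 and 92.5 TPM in the controls. The groups did not overlap (61.7 ± 9.07 against 93.2 ± 1.17 TPM, mean ± SD, n = 3 each), and the log2 difference was -0.60 with a standard error of 0.13. The limma adjusted p was 0.9999 over 14189 genes. Gene-level TPM also counts reads outside the deleted exon and reads from cells other than hepatocytes. No gene passed an adjusted p of 0.01, 0% of those tested, and the smallest adjusted p was 0.456. The study's own DESeq2 comparison, at the same level of 0.01, reported a limited number of changed genes. The count here is that of the limma fit on TPM alone. At an unadjusted p under 0.05 limma gave 250 genes, 1.76%, with 114 higher and 136 lower in Alb-Cre+ livers. With the replicate number as a block there were 666 such genes, 4.69%, and again none at the adjusted threshold. Hepatocyte markers made the largest share of the marker RNA in every library, with summed levels of 54978 to 75350 TPM in Alb-Cre+ and 73624 to 84821 TPM in control livers over the 7 of 8 listed genes analyzed here.

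Levels of the 10 genes ran from 0.299 to 6557 TPM. Cyp2e1 was highest in every mouse (3416 to 6557 TPM), followed by Oat (507 to 943), Glul (185 to 570), Cyp1a2 (62.8 to 158), Slc1a2 (33.2 to 54.4), Rhbg (4.56 to 11.6), Tbx3 (1.99 to 13.7), Rnf43 (2.69 to 7.99), Axin2 (1.25 to 3.64) and Lgr5 (0.299 to 1.16). Ranges of Oat and Glul overlapped, as did those of Rhbg, Tbx3 and Rnf43 and those of Rnf43 and Axin2. Ranges of the other neighbors in this order were separate. The enzymes of nitrogen and drug metabolism were thus far above the signaling genes, on a per-length scale.

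**Figure D1:**
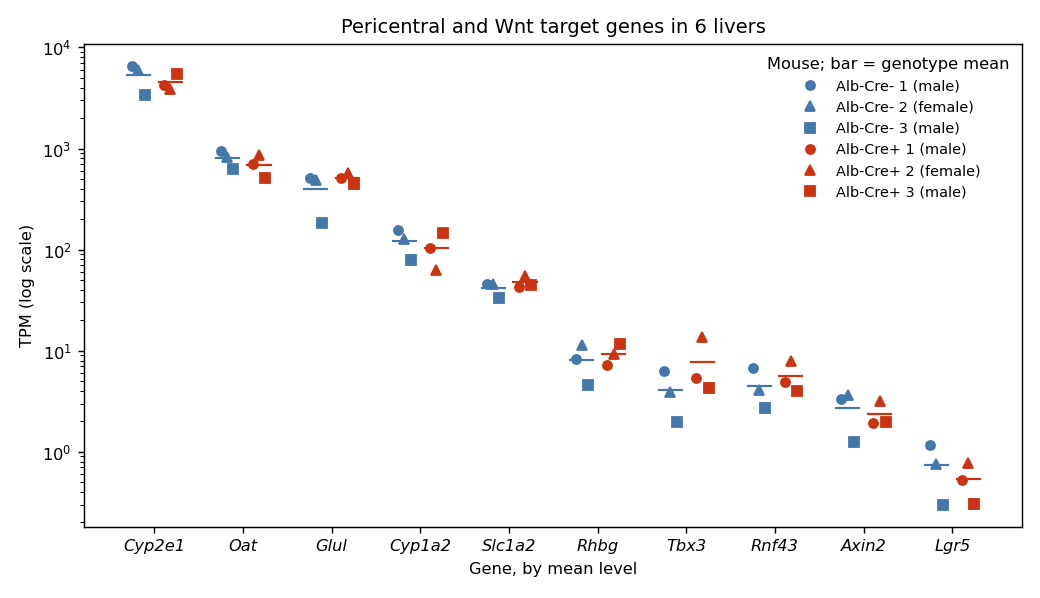
Level of each of the 10 genes (TPM, log scale) in the 6 livers, ordered by mean level. Each point is a mouse and each bar the mean of a genotype. Control replicate 3, the blue square, is the lowest of the 6 points for 8 of the 10 genes, and the genotypes overlap for all 10.

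Glul encodes glutamine synthetase, which joins ammonia to glutamate in the last rows of hepatocytes before the central vein. It lies at chr1:153899944-153909723 (GRCm38, plus strand). Its level was 516, 570 and 450 TPM in Alb-Cre+ replicates 1, 2 and 3 and 510, 490 and 185 TPM in the controls. The 3 Alb-Cre+ livers and 2 of the controls lay close together, and control replicate 3 was far below them. Group means were 512 ± 60.0 and 395 ± 182 TPM (n = 3 each), with a log2 difference of 0.50 (standard error 0.38, 95% interval -0.40 to 1.40, limma adjusted p = 0.9999). Without control replicate 3 the difference was 0.03. In Glul, 19.7% of the 31-base stretches of its transcripts also occur in other genes, most in the pseudogene Glns-ps1, so reads could be split between them.

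Oat encodes ornithine aminotransferase, a mitochondrial enzyme that works beside glutamine synthetase in amino acid breakdown (chr7:132557478-132576398, minus strand). It was at 699, 854 and 507 TPM in Alb-Cre+ livers and 943, 826 and 627 TPM in controls. The highest and the lowest value came from different genotypes, with the others interleaved. Means were 687 ± 174 and 799 ± 160 TPM (n = 3 each), a log2 difference of -0.23 (standard error 0.24, 95% interval -0.79 to 0.33, limma adjusted p = 0.9999).

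Cyp2e1 and Cyp1a2 are cytochrome P450 enzymes that oxidize ethanol, acetaminophen, caffeine and other small molecules. Cyp2e1 (chr7:140763739-140774987, plus strand) was at 4293, 3843 and 5510 TPM in Alb-Cre+ livers and at 6557, 5953 and 3416 TPM in controls. Cyp1a2 (chr9:57676937-57683703, minus strand) was at 103, 62.8 and 146 TPM in Alb-Cre+ livers and at 158, 127 and 79.6 TPM in controls. Both enzymes were lower in Alb-Cre+ than in control livers among replicates 1 and 2 and higher among replicate 3. For Cyp2e1 the log2 difference was -0.18 (standard error 0.30, 95% interval -0.89 to 0.52), and for Cyp1a2 it was -0.25 (standard error 0.36, 95% interval -1.10 to 0.59). Neither passed the limma test at the adjusted threshold. In male mice alone the signs turned, to 0.04 for Cyp2e1 and 0.13 for Cyp1a2. The paralog Cyp1a1 shares part of the Cyp1a2 sequence, and 7.67% of the 31-base stretches of Cyp1a2 are not its own.

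Slc1a2 carries glutamate into the cell and Rhbg carries ammonia, the substrates of glutamine synthetase. Slc1a2 (chr2:102658659-102790784, plus strand) was at 43.0, 54.4 and 45.0 TPM in Alb-Cre+ livers and 45.7, 45.4 and 33.2 TPM in controls. It varied least of the 10 genes, with a log2 difference of 0.20 (standard error 0.17, 95% interval -0.20 to 0.61). Rhbg (chr3:88242874-88254709, minus strand) was at 7.30, 9.24 and 11.6 TPM in Alb-Cre+ livers and 8.30, 11.4 and 4.56 TPM in controls. Its log2 difference was 0.28 (standard error 0.35, 95% interval -0.54 to 1.11), and -0.08 without control replicate 3. Rhbg values are uncertain, since 60.8% of the 31-base stretches of its transcript are shared, with Gm38392 on the same strand.

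Axin2, Lgr5 and Rnf43 sit in the feedback of the pathway that induces them. Axin2 is a scaffold of the complex that degrades beta-catenin, Lgr5 is a receptor for R-spondins, and Rnf43 is a ubiquitin ligase that removes Frizzled receptors from the cell surface. Axin2 (chr11:108920349-108950783, plus strand) was at 1.92, 3.20 and 1.98 TPM in Alb-Cre+ livers and 3.30, 3.64 and 1.25 TPM in controls. Control replicates 1 and 2 were above every Alb-Cre+ liver and control replicate 3 was below them all. The log2 difference was -0.10 (standard error 0.44, 95% interval -1.14 to 0.94), and -0.57 without control replicate 3.

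Lgr5 (chr10:115450311-115587780, minus strand) was the lowest member, at 0.523, 0.781 and 0.303 TPM in Alb-Cre+ livers and 1.16, 0.755 and 0.299 TPM in controls. Within each of the pairs of replicates 2 and 3 the genotypes were nearly level, and control replicate 1 stood highest. The log2 difference of TPM + 0.1, which understates changes of so low a gene, was -0.32 (standard error 0.51, 95% interval -1.53 to 0.90). Rnf43 (chr11:87662722-87735539, plus strand) was at 4.86, 7.99 and 3.99 TPM in Alb-Cre+ livers and 6.68, 4.10 and 2.69 TPM in controls. Its log2 difference was 0.35 (standard error 0.39, 95% interval -0.57 to 1.27), and 0.04 without control replicate 3.

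Tbx3 encodes a T-box transcription factor and a Wnt target of pericentral hepatocytes (chr5:119670669-119684724, plus strand). It was at 5.40, 13.7 and 4.25 TPM in Alb-Cre+ livers and 6.34, 3.89 and 1.99 TPM in controls. The female Alb-Cre+ liver held the highest level, above the female control and above all 4 males. Tbx3 had the widest difference of the 10, 0.87 on the log2 scale (standard error 0.54, 95% interval -0.41 to 2.16), and the smallest unadjusted p by limma, 0.153. With the block on replicate number that p was 0.0686. The annotated antisense gene Tbx3os1 overlaps its exons, and antisense genes of Axin2 (Gm11670) and Slc1a2 (Gm13872) do likewise. Exons of Teddm2 on the opposite strand and of Mir8114 on the same strand overlap those of Glul. Whether the libraries keep strand is not given in the sources used here.

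**Figure D2:**
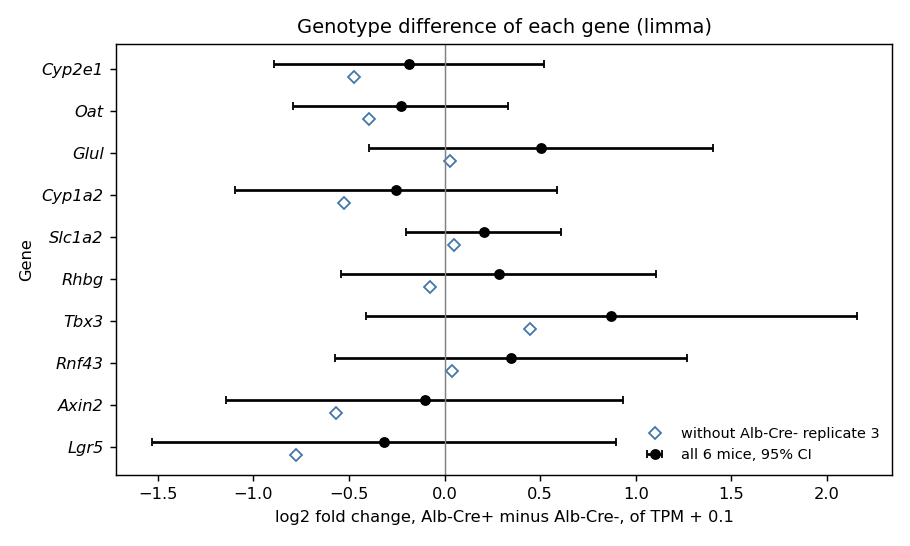
Log2 difference of TPM + 0.1 between Alb-Cre+ and Alb-Cre- livers for each gene from limma, with 95% intervals. Every interval includes 0, and the open diamonds give the difference without control replicate 3.

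Across the 10 members, 5 differences were above 0 and 5 below, with a median of 0.05 on the log2 scale beside -0.00 over all genes tested. None had an unadjusted p under 0.05 (1.76% of all genes did), with or without the replicate block. None had genotypes that did not overlap, against 4.9% of all genes. When mice were paired by replicate number, Glul alone kept 1 sign in the 3 pairs, at 0.02, 0.22 and 1.28, as 23.9% of all genes did. The intervals still allow, for Glul, a TPM + 0.1 between 0.760 and 2.65 times that of controls, and for Lgr5 between 0.346 and 1.86 times. For a gene as low as Lgr5 the added 0.1 TPM draws these ratios toward 1. Which sizes of difference 3 mice a genotype could detect in these 10 genes was not tested.

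Control replicate 3 stood apart from the other controls. Its level was below both other controls for 10 of 10 members, against 45.4% of all genes, and it was the lowest of the 6 mice for 8 of 10, against 21.2% of all genes tested. The exceptions were Cyp1a2, lowest in the female Alb-Cre+ liver, and Oat, lowest in Alb-Cre+ replicate 3. On the log2 scale control replicate 3 was below the mean of the other controls by a median of -1.004 over the members and -0.13 over all genes. Against that mean it held 0.371 times the Glul, 0.361 times the Axin2, 0.313 times the Lgr5 and 0.388 times the Tbx3, but 0.709 times the Oat and 0.728 times the Slc1a2. This liver was singled out after its values were seen, so these numbers describe it and carry no test. Alb-Cre+ replicate 3, the same-numbered male, was the lowest mouse for 42.4% of all genes but for 1 member. Leaving out control replicate 3 moved the log2 difference to -0.47 for Cyp2e1, -0.53 for Cyp1a2, -0.39 for Oat, 0.05 for Slc1a2, -0.78 for Lgr5 and 0.45 for Tbx3. Without control replicate 3 the members split into 4 higher and 6 lower in Alb-Cre+ livers, with a median of -0.23 against -0.05 over all genes, and again 0 had an unadjusted p under 0.05 in the limma fit, against 1.38% of all genes in that fit.

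**Figure D3:**
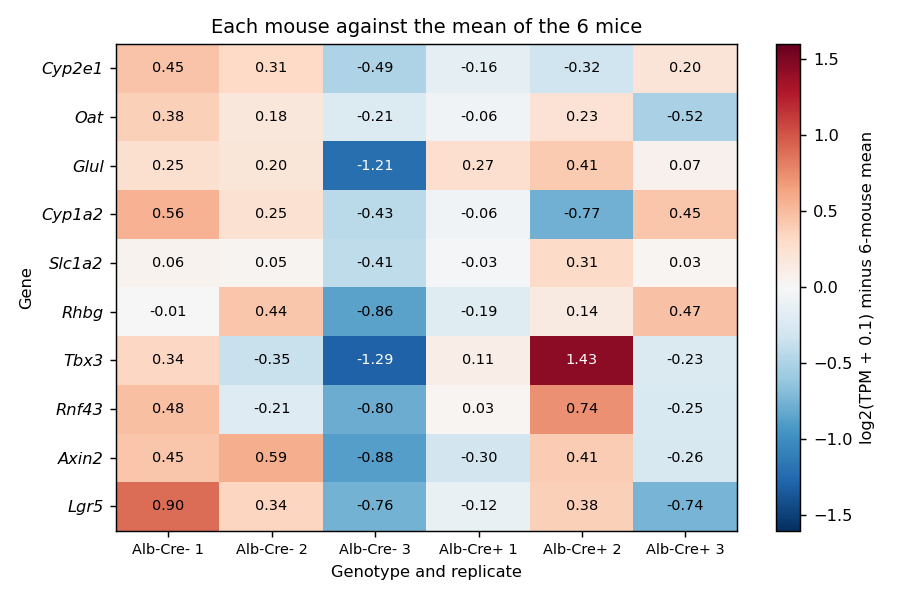
Log2(TPM + 0.1) of each gene in each liver minus its mean over the 6 livers, printed in each cell (red above, blue below). The column of control replicate 3 is below 0 for all 10 genes, and Tbx3 in the female Alb-Cre+ liver is the highest cell, at 1.43.

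Markers of some other cell types, but not all, also stood apart in control replicate 3. The 7 stellate cell markers summed to 104 TPM there and to 196 and 267 TPM in the other controls, against 126 to 254 TPM in Alb-Cre+ livers, and 6 of the 7 were lowest in that mouse. The 13 endothelial markers summed to 136 TPM there, within 104 to 255 TPM in Alb-Cre+ livers and 136 to 221 TPM in controls, with 5 of 13 lowest in it. Red blood cell genes were highest in it, at 408 TPM for the 5 genes, against 103 and 262 TPM in the other controls and 131 to 308 TPM in Alb-Cre+ livers. The 5 cholangiocyte genes had their lowest sum in control replicate 3, at 15.0 TPM, with 2 of 5 lowest in it. The 8 Kupffer cell genes summed to 264 TPM there and to 306 and 710 TPM in the other controls. Alb-Cre+ livers held 210 to 760 TPM of them, and 0 of the 8 were lowest in control replicate 3. Their median log2 distance from the other controls was -0.83 in that mouse. None of these markers was at 0 in every mouse. Their part in the low pericentral values was not tested.

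The Wnt ligands of the central vein were measured at low levels. Wnt2 was at 1.79, 2.98 and 1.57 TPM in Alb-Cre+ livers and 2.14, 3.15 and 1.18 TPM in controls, a log2 difference of 0.02. Rspo3 was at 2.01, 2.71 and 1.58 TPM against 2.50, 2.87 and 1.02 TPM, a difference of 0.07. Both were highest in the 2 female livers and lowest in control replicate 3, without which they differed by -0.34 and -0.37. Wnt9b stayed under 1 TPM in all mice and differed by 0.10, and by 0.32 without control replicate 3.

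Of 24 Wnt and R-spondin ligand genes, 10 passed the filter on low values and 4 of the rest were listed at 0 in every mouse. Of these, 8 of 10 were higher in Alb-Cre+ livers and 2 lower, none past the adjusted threshold, with a median of 0.10. Wnt11 had the widest difference, 1.56 on the log2 scale, from 0.176, 1.14 and 0.325 TPM in Alb-Cre+ livers and 0.0385, 0.287 and 0.00689 TPM in controls. Its unadjusted p was 0.0638 by limma and 0.0037 with the replicate block, and its levels overlapped between genotypes. Wnt5b, far more abundant, was at 8.56, 8.498 and 6.51 TPM against 7.75, 3.76 and 4.22 TPM, a difference of 0.64 with unadjusted limma p of 0.0701 and 0.0313 with the block.

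Receptors and intracellular components gave no gene at an unadjusted p under 0.05 by limma. Among 11 of 17 Wnt receptor genes that were tested, 5 were higher and 6 lower, with a median of -0.03. The R-spondin receptor Lgr4 differed by -0.15, the Frizzled receptors Fzd5 and Fzd7 by -0.36 and 0.31, and Znrf3, the partner ligase of Rnf43, by 0.19. Among 22 of 23 genes of the beta-catenin destruction complex and its transducers, 12 were higher and 10 lower, with a median of 0.07. Ctnnb1, which encodes beta-catenin itself, differed by 0.05, and Tcf7l2, the main TCF factor of hepatocytes, by 0.53 (limma unadjusted p = 0.138). Without control replicate 3 the differences were 0.10 for Fzd7, -0.02 for Lgr4, 0.02 for Ctnnb1 and 0.34 for Tcf7l2. Control replicate 3 was the lowest mouse for 2 of the 22 genes of the destruction complex and transducers. It was the lowest for 7 of the 11 receptors and 5 of the 10 ligand genes tested, against 21.2% of all genes.

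The inhibitors of Wnt signaling were mostly below the filter, with 4 of 13 tested, 2 higher and 2 lower. Wif1, a secreted protein that binds Wnts, was at 0.0422, 0.0207 and 0.0196 TPM in Alb-Cre+ livers and 0.441, 0.560 and 0.0495 TPM in controls. Its levels did not overlap, with a log2 difference of -1.57 and an unadjusted limma p of 0.033. Control replicate 3 lay next to the Alb-Cre+ livers, however, and the adjusted p did not pass. Wif1 passed the filter of 0.1 TPM only through control replicates 1 and 2, with every other value below it. The missing overlap and the p thus rest on the mice that let the gene in, and carry no support. Kremen1, a coreceptor of the Dickkopf inhibitors, differed by 0.09.

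Other Wnt target and feedback genes were also low in control replicate 3. Of 11 listed, 9 were tested and all 9 were higher in Alb-Cre+ livers, with a median of 0.39 and a range of 0.16 to 0.61, but none had an unadjusted p under 0.05 by limma. Control replicate 3 was the lowest mouse for 7 of the 9. Without it 5 were higher and 4 lower, with a median of 0.03. The medians within the pairs of replicates 1, 2 and 3 were 0.06, 0.16 and 0.63. Nkd1, an intracellular antagonist of the pathway, was at 2.08, 1.87 and 1.37 TPM in Alb-Cre+ livers and 1.99, 1.98 and 0.551 TPM in controls, and is named here after its values were seen. Myc, a proliferation factor, differed by 0.50 (limma unadjusted p = 0.389, and 0.0353 with the replicate block), and the TCF family member Tcf7 by 0.61. The differences were 0.10 and 0.23 without control replicate 3.

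**Figure D4:**
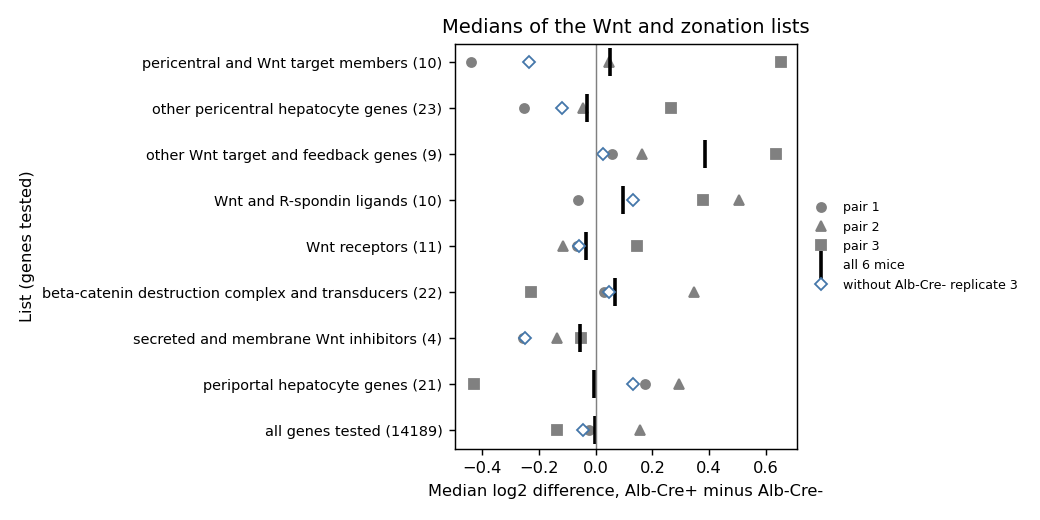
Median log2 difference of TPM + 0.1 between genotypes in each gene list (number of genes tested in brackets), over all 6 mice, within each pair of same-numbered mice and without control replicate 3. The median of the 9 other Wnt target genes goes from 0.39 to 0.03 without that mouse, while the median over all genes stays near 0.

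Other pericentral genes, 23 of 23 tested, split into 10 higher and 13 lower with a median of -0.03. At an unadjusted p under 0.05 limma gave 1 higher and 2 lower, and with the replicate block 4 higher and 3 lower (1.76% and 4.69% of all genes in the respective fits), none past the adjusted threshold. Aldh1a1, which oxidizes retinaldehyde, was at 826, 649 and 905 TPM in Alb-Cre+ livers and 660, 451 and 362 TPM in controls, a log2 difference of 0.72 with an unadjusted limma p of 0.0212. Lhpp, a phosphatase, was at 55.7, 78.0 and 46.6 TPM against 97.1, 91.1 and 71.8 TPM, a difference of -0.55 with an unadjusted limma p of 0.0379. The glutathione transferase Gstm2 was lower in all Alb-Cre+ livers than in any control, at 40.7, 35.4 and 35.9 TPM against 51.6, 42.1 and 50.3 TPM, a difference of -0.36 with an unadjusted limma p of 0.0302. Gstm2 has close paralogs that could share its reads.

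The replicate block added 4 pericentral genes to those with an unadjusted limma p under 0.05. Cyp7a1, the rate-limiting enzyme of bile acid synthesis, was at 80.2, 23.1 and 39.5 TPM in Alb-Cre+ livers and 135, 30.2 and 50.7 TPM in controls, lower in every pair by a log2 difference of -0.50 on average (limma unadjusted p = 0.45, and 0.00706 with the block). The organic cation transporter Slc22a3 differed by 0.56, the heme synthesis enzyme Cpox by 0.28 and the nuclear receptor Nr1i3 by 0.44, with unadjusted limma p of 0.0321, 0.0374 and 0.0297 with the block and 0.234, 0.344 and 0.260 without it. These differences were 0.18, 0.0016 and 0.13 without control replicate 3. Control replicate 3 was the lowest mouse for 13 of the 23 pericentral genes, and its median distance from the other controls was -0.70.

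Periportal genes were not low in that mouse. Of 21 periportal genes, 10 were higher and 11 lower in Alb-Cre+ livers, with a median of -0.01, and 0 of 21 were lowest in control replicate 3, where the median distance from the other controls was 0.38. The urea cycle enzyme Ass1 was at 5683 TPM in control replicate 3 and at 2609 to 4474 TPM in the other 5 mice, the glutaminase Gls2 at 385 TPM beside 144 to 248 TPM, and the serine dehydratase Sds at 911 TPM beside 350 to 699.5 TPM. These 3 are named after their values were seen, and not every gene of the list was raised in control replicate 3. There Pck1 was at 0.908 and Apof at 0.918 times the mean of the other controls, with Aldh1b1 at 2.56 and Cyp2f2 at 1.68. Among genes taken by rule, Aldh1b1 differed by -0.68 between genotypes, the gluconeogenic enzyme Pck1 by -0.39, Apof by -0.35 (lower in all Alb-Cre+ livers, limma unadjusted p = 0.0889) and the cytochrome Cyp2f2 by 0.37. Without control replicate 3, which held 2.56 times the Aldh1b1 of the other controls, Aldh1b1 differed by -0.22 and Cyp2f2 by 0.67. None passed the adjusted threshold.

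A zonation measure, the mean log2(TPM + 0.1) of Glul, Cyp2e1, Cyp1a2 and Oat minus that of the 21 periportal genes, was 0.81, 0.99 and 1.30 in Alb-Cre+ replicates 1, 2 and 3 and 1.45, 1.599 and 0.13 in controls. Means were 1.03 ± 0.25 and 1.06 ± 0.81 (n = 3 each), a difference of -0.03, smaller than the spread in either genotype. Without control replicate 3 the difference was -0.49. All 3 Alb-Cre+ livers lay between control replicate 3 and the other controls. With all 27 pericentral genes in place of 4 the difference was 0.02, and control replicate 3 was again lowest.

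**Figure D5:**
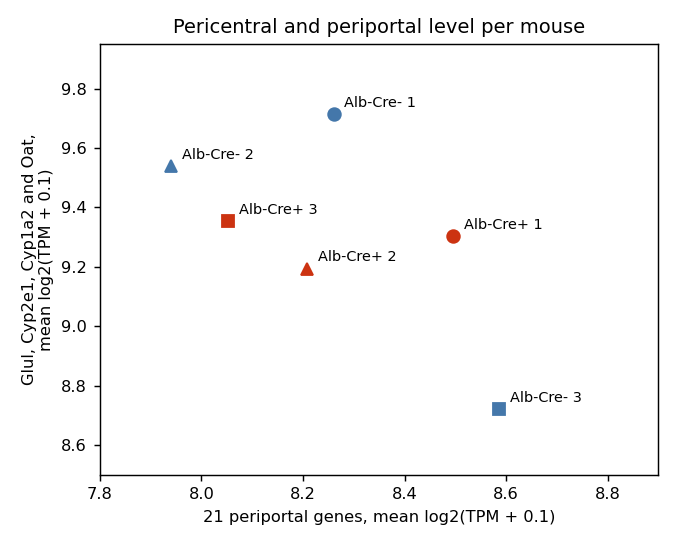
Mean log2(TPM + 0.1) of the 4 pericentral enzymes (vertical) against that of 21 periportal genes (horizontal), 1 point a mouse. Control replicate 3 has the lowest pericentral and the highest periportal mean of the 6 livers.

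The genes whose pattern over the 6 mice was nearest to that of Glul, by root mean square difference of mean-centered log2 values among 10626 genes, were A930018P22Rik (0.0665) and Pspc1 (0.0847). Nearest to Axin2 were 2310057M21Rik (0.0921) and Gbp6 (0.12). These likenesses over 6 mice are a description.

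Isoforms were described from the transcript values. A single transcript carried 99.2% to 99.5% of Glul TPM in each mouse, 99.2% to 99.3% of Cyp2e1, 99.5% to 100% of Cyp1a2, 99.6% to 99.9% of Oat and 87.1% to 100% of Lgr5. Rhbg had 1 transcript in the table. The other 4 genes were spread over more transcripts, with the transcript of the highest mean level at 41.4% to 72.9% for Axin2, 36.3% to 49.1% for Slc1a2, 28.8% to 39.5% for Tbx3 and 23.5% to 36.3% for Rnf43. In control replicate 3 another transcript led for Slc1a2 (41.3% against 36.3%), Tbx3 (39.1% against 30.7%) and Rnf43 (38.0% against 29.1%). For Tbx3 another transcript also led in control replicate 1 (36.7% against 31.3%). For Rnf43 this held in control replicate 2 (33.1% against 25.5%) and Alb-Cre+ replicate 3 (23.7% against 23.5%).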

How the data were processed

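Liver RNA-seq of 6 mice was analyzed. The authors aligned reads to the mouse genome (GRCm38.92) with STAR and quantified them with RSEM per the study's methods, and the deposited table, whose labels also name Salmon, gives TPM per transcript and mouse. The TPM sum to 1000000 per mouse and keep no read depth, so precision was judged from the spread between mice. A deposited table of the authors' DESeq2 comparison (mean normalized count, log2 fold change, standard error, statistic, p and adjusted p) was not used. Sequences and positions came from RefSeq (GRCm38.p6) and GENCODE M21 (GRCm38).

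TPM were summed by gene symbol (116748 transcripts, of which 163 without a symbol, 0.0515% to 0.0887% of TPM, were left out). Genes averaging 0.1 TPM or more (14189) were kept, and their log2(TPM + 0.1) was fitted with limma 3.58.1 (R 4.3.3, trend), with genotype as the only term, and p-values were adjusted by Benjamini-Hochberg over all genes with a threshold of 0.01. Python 3.11.15 and pandas 2.3.3 did the rest. The fit was tested on simulated data, with changes in genes drawn at random from all genes tested and not for the members as such. Groups came from the genotype labels. Deviations of same-numbered mice from their group means correlated with r of 0.367, 0.588 and 0.370 over 14189 genes, each above 0.1. A fit with the replicate number as a block was therefore run beside the main one. Between differently numbered males r was 0.171 (Alb-Cre+ replicate 3 with control replicate 1) and 0.0914 (Alb-Cre+ replicate 1 with control replicate 3). The cut of 0.1 thus did not separate same-numbered from other males. Between mice of different sex r was negative. Same-numbered mice share sex. Alternatives were a term for sex, male mice only, pseudocount 1, a mean of at least 1 TPM, no filter, median-of-ratios scaling, no trend and leaving out each mouse. Members and lists were chosen with earlier results of these data known. Genes were named by rule, namely all members, 9 key genes, list genes with an unadjusted p under 0.05 in either fit, and the 2 widest differences per list averaging 1 TPM or more.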

Additional observations from a re-analysis of the deposited data

Results flagged for a closer look

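In some genes the female pair of mice differed between genotypes in the opposite direction from both male pairs, on the log2 scale of TPM + 0.1 and as Alb-Cre+ minus Alb-Cre-. Among the members this was the case for Oat, at 0.048 in the female pair and -0.43 and -0.31 in the male pairs. Of the other genes, the female and male values were 0.15 against -0.18 and -0.50 for the Wnt carrier Wls, -0.11 against 0.22 and 0.83 for Fzd7, 0.65 against -0.40 and -2.29 for Aldh1b1, 0.40 against -0.46 and -1.42 for the endothelial receptor Lyve1, 1.00 against -0.23 and -0.45 for Wnt9b, 0.86 against -0.27 and -0.01 for Znrf3, and 0.31 against -0.11 and -0.64 for Lgr4. The median over the marker list was likewise positive in the female pair and negative in both male pairs for endothelium (0.26 in the female pair), Kupffer cells (0.11) and cholangiocytes (0.12). With 1 female pair the difference between the sexes was not tested. Of 51 genes checked 8 showed it, and so did 32.9% of all genes.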

How the results depend on the processing

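No gene passed the adjusted threshold in any fit but that without Alb-Cre+ replicate 1, so leaving out mice gave 0 to 1 genes. That gene, Gm10240, named after its values were seen, had an adjusted p of 3.1e-04 by limma and was listed at 0 TPM in all mice but Alb-Cre+ replicates 2 and 3. Genes with an unadjusted p under 0.05 numbered 250, 666 with the replicate block, 531 with a term for sex, 522 in male mice only, 442 with no filter, 329 with median-of-ratios scaling and 183 to 506 without single mice. The block changed no call, with 0 genes at the adjusted threshold.

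Leaving out single mice moved the log2 difference between 0.03 and 0.76 for Glul, -0.47 and -0.00 for Cyp2e1, -0.54 and 0.069 for Cyp1a2, -0.40 and -0.03 for Oat, -0.57 and 0.16 for Axin2, -0.78 and 0.050 for Lgr5, 0.05 and 0.28 for Slc1a2, -0.075 and 0.57 for Rhbg, 0.375 and 1.26 for Tbx3, and 0.04 and 0.68 for Rnf43. The signs of Cyp1a2, Axin2, Lgr5 and Rhbg thus rested on single mice. In male mice only, Cyp2e1 was at 0.039 and Cyp1a2 at 0.13. The median of the other Wnt targets ranged from 0.025 to 0.67, the lowest without control replicate 3. The median of the Wnt inhibitors ranged from -0.32 to 0.11 without single mice, and was 0.087 with a mean of at least 1 TPM and 0.052 with no filter, since these left 1 and 13 genes in place of 4. The zonation difference ranged from -0.49, without control replicate 3, to 0.24, without control replicate 2. Without Alb-Cre+ replicate 2 the median of all genes shifted to -0.12, without Alb-Cre+ replicate 3 to 0.11. The cause of the other shifts was not tested. With 3 mice a genotype and unknown depth, absence of a difference cannot be read from these values.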

Other observations

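Summed Kupffer cell, endothelial and stellate cell markers were highest in the female liver of each genotype, which was 1 mouse, replicate 2. Endothelial markers summed to 255 TPM in the female Alb-Cre+ liver and 221 TPM in the female control, against 104 to 172 TPM in males. Stellate cell markers summed to 254 and 267 TPM in these females, against 104 to 196 TPM in males. The 8 Kupffer cell genes summed to 760 TPM in the female Alb-Cre+ liver and 710 TPM in the female control, against 210 to 307 TPM in the 4 males. Of the 8 genes 2 were higher and 6 lower in Alb-Cre+ than in control livers, with a median of -0.06 on the log2 scale and none past the adjusted threshold of limma. Marco, a scavenger receptor of macrophages in this list, differed by 0.64 on the log2 scale, Alb-Cre+ minus Alb-Cre-, opposite in sign to the median of its list, with an unadjusted limma p of 0.31, and 0.0219 under the replicate block. The 5 cholangiocyte genes summed to 23.3 to 39.2 TPM in Alb-Cre+ livers and 15.0 to 59.2 TPM in controls, and the 4 lymphocyte genes to 1.41 to 2.52 and 1.69 to 4.05 TPM. Among hepatocyte genes, Apoa1, the main protein of high-density lipoprotein, differed by -0.91 on the log2 scale, Alb-Cre+ minus Alb-Cre- (limma unadjusted p = 0.00651), and the thyroxine carrier Ttr by -0.37 (limma unadjusted p = 0.0771). Neither passed the adjusted threshold of the limma fit.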
